A study of Homo sapiens with 18 samples.

Results

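ZNF804A, GPC6, GMDS, PTPRG, MAGI1, DCC, MYRIP and UNC13B are 8 protein-coding genes, of 62703 genes in the count tables, that were chosen by their change with NEAT1 in human myeloma cells. They were selected on measured values, as genes among the largest changes in the direction of NEAT1, and no numeric threshold was set. Their levels and changes between the gapmeR labels are therefore given as a description. Where a member is said to be called or past the threshold, this is the outcome of the fit over all genes, printed without a p-value and with nothing read from it. GPC6 was 4.64-fold higher in AMO1 and 4.78-fold higher in H929 in the libraries labelled gN1E, and ZNF804A was 5.94-fold and 4.23-fold higher. In LP1 the largest of the 8 changes that rested on more than 50 counts was that of MAGI1, at 2.07-fold.

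The study silenced NEAT1, a nuclear long non-coding RNA that builds the paraspeckle, in the myeloma lines AMO1, H929 (NCI-H929) and LP1. An LNA-gapmeR, here g#N1_E, is a short antisense oligonucleotide that pairs with an RNA and lets RNase H cut it, and g#SCR is its scrambled control. Cells took up the naked oligonucleotide and were harvested at 48 h, and stranded total RNA was sequenced. Each line has 3 libraries labelled gN1E and 3 labelled SCR, 18 in all, and no group carries any other agent or allele by its labels. A single NEAT1 gapmeR was used, and the labels do not say whether replicates were separate cultures, so adjusted p-values measure only the spread between these libraries, which may be technical. The names inside the deposited tables exchange gN1E with SCR in every line and H929 with LP1, so every library is called here by its label.

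NEAT1 was measured first, as a check of the labels. In AMO1 its level was 473, 553 and 517 CPM (reads of the gene per 1e6 reads counted, with TMM-scaled library sizes) in the libraries labelled gN1E, and 75.7, 78.8 and 90.8 CPM in those labelled SCR. In H929 it was 554, 464 and 542 CPM against 79.8, 72.7 and 79.1 CPM, and in LP1 656, 667 and 829 CPM against 135, 173 and 189 CPM. NEAT1 was thus higher in every library labelled gN1E than in any labelled SCR of its line, which goes against the label of a knock-down. The log2 fold change, gN1E minus SCR throughout, was 2.66 (SE 0.074, adjusted p = 5.1e-13) in AMO1, 2.74 (SE 0.068, adjusted p = 3.11e-14) in H929 and 2.14 (SE 0.19, adjusted p = 0.0269) in LP1, from edgeR's quasi-likelihood test. In LP1 the call was lost without SCR B, gN1E A, gN1E B or gN1E D, each left out alone, while the log2 fold change stayed between 2.0 and 2.25. A gene that is "higher under gN1E" here moved together with NEAT1. The 8 genes would be called fallers only if the labels were exchanged. The study lists UNC13B among its targets that fell on NEAT1 knock-down in AMO1. That result came from the same AMO1 data as used here, so it is no second observation. The study also required its targets to rise in AMO1 cells that overexpress NEAT1, which are not part of these libraries. An exchange of labels was not tested, neither of gN1E with SCR nor of H929 with LP1, so the line names here are labels too.

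The 8 genes belong to several families that act at the cell surface, at cell junctions or in vesicle traffic. DCC is the netrin receptor that steers growing axons, PTPRG a receptor tyrosine phosphatase, and GPC6 a glypican, a heparan sulfate proteoglycan held in the membrane by a lipid anchor. MAGI1 is a scaffold of tight junctions, UNC13B primes vesicles for release, and MYRIP links the vesicle protein RAB27A to myosin motors. GMDS makes the first step from GDP-mannose to GDP-fucose, the donor for fucosylation, and ZNF804A encodes a zinc finger protein known from genetic studies of schizophrenia. Several are best known from nerve cells, but GMDS is a metabolic enzyme of many tissues.

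The cells did not have the expression of neurons. Of 14 neuronal markers, STMN2, NEFL, NEFM, DCX and ELAVL4 had no count in any library of the 3 lines, and the summed level of the list ran from 9.82 to 38.5 CPM. SYT1, which itself spans 588 kb and carries 11 bases of a NEAT1 window that the 8 genes share, made up most of that sum in AMO1, with 32.7 CPM in the libraries labelled gN1E and 32.4 CPM in those labelled SCR. None of the neuronal markers passed the test in any line, and the list's median log2 fold change was -0.26 in AMO1, 0.06 in H929 and -0.23 in LP1. All 10 plasma cell markers were expressed, with a summed level between 12085 and 22282 CPM. Among them SDC1 (CD138) rose in H929 (log2 fold change 0.22, adjusted p = 0.0196) and CD38 fell there (-0.21, adjusted p = 0.00406, edgeR), and none passed in the other lines. In AMO1, with the replicate block that its letters allow, TUBB3 (-0.60, adjusted p = 0.0414), POU2AF1 (-0.15, adjusted p = 0.0219) and JCHAIN (0.17, adjusted p = 0.00927) also passed. The 6 markers of other cells summed to between 8.85 and 26.4 CPM, most of it CD3E, and none passed the test. As in any bulk sample, fewer cells that express a gene and less of its RNA per cell cannot be told apart.

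The genes share a large genomic span of which exons are a small share, although each has more exon than the median tested gene (3106 bases). Their spans in the GENCODE annotation of hg38 ran from 243 kb for UNC13B to 1196 kb for DCC, whereas the median of the 26436 genes tested in any line was 14.3 kb, and 5.90% of those genes were longer than 200 kb. ZNF804A lies at chr2:184598529-184939492 on the plus strand, spans 341 kb and has 4527 bases of exon. GPC6 lies at chr13:93226807-94408020 on the plus strand and has 7122 bases of exon in 1181 kb. GMDS is at chr6:1623806-2245605 on the minus strand, with 4217 bases of exon in 622 kb. These 3 have 1.33%, 0.603% and 0.678% of their span in exons.

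Chromosome 3 holds another 3 of the 8 genes. PTPRG is at chr3:61561569-62297609 on the plus strand (736 kb, 14625 bases of exon), MAGI1 at chr3:65353525-66038918 on the minus strand (685 kb, 11733 bases of exon) and MYRIP at chr3:39808914-40260321 on the plus strand (451 kb, 5868 bases of exon). DCC is at chr18:52340197-53535903 on the plus strand with 13135 bases of exon. UNC13B, at chr9:35161992-35405338 on the plus strand, has the largest exonic share, 7.36% (17910 bases). The median exonic share of tested genes over 200 kb was 2.59%, so 7 of the 8 genes lie below it.

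Each of the 8 genes also carries, in an intron and on its transcribed strand, 11 to 13 bases in a row of a single NEAT1 window of 21 bases. The window was found by scoring every stretch of 11 bases of NEAT1 (22767 bases) on the AMO1 changes of the genes that carry it, after removing the trend with span and leaving out NEAT1 and the 8 genes. The leading stretch began at base 3080 of NEAT1, its 257 carriers were on average 0.24 above the trend on the log2 scale, and its score was 20.6, against 5.24 for the highest score elsewhere in NEAT1 and -9.82 for the lowest. Scored on H929 or LP1 alone, the leading stretch of 11 bases began at the same base, with scores of 21.9 and 9.03. The window is NEAT1 bases 3075 to 3095, at chr11:65425848-65425868 on the plus strand. It is printed with the leading stretch in capitals, followed by a longest site of each gene with the bases shared with the window in capitals and 8 flanking bases on each side.
NEAT1 window: accttTTGTGGTCACTgtaaa
ZNF804A: taaaatgaTTTTGTGGTCACTttgtcctg
GPC6: ttaaggctTGGTCACTGTAAAtgtcaaag
MAGI1: agatatggTTGTGGTCACTGTctttatgg
DCC: gccagggcTTGTGGTCACTGTggtgcaac
GMDS: gtgcatacTTGTGGTCACTGcctttctt
PTPRG: gagttctcTTGTGGTCACTGgaagattt
MYRIP: acttgaagTTTGTGGTCACTattttaca
UNC13B: tgaattcgTTGTGGTCACTttttgtgg

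In hg38 these sites lie at chr2:184666573-184666585 (ZNF804A), chr13:93648918-93648930 (GPC6), chr3:65487329-65487341 (MAGI1, minus strand) and chr18:53446353-53446365 (DCC), with 13 bases each. Those of 12 bases lie at chr6:2154535-2154546 (GMDS, minus strand), chr3:61753083-61753094 (PTPRG) and chr3:39902386-39902397 (MYRIP), and that of UNC13B, with 11 bases, at chr9:35276537-35276547. The runs cover different parts of the window. GPC6 shares window bases 9 to 21, whereas ZNF804A shares bases 4 to 16. GMDS and MYRIP each have 2 sites of 12 bases, and UNC13B has 3 sites of 11 bases. All sites of 11 or more bases in the 8 genes are intronic, and the counts are of reads in exons. Long genes often carry such a run, since 70.0% of the 1560 tested genes over 200 kb have 11 or more bases, 25.8% have 12 or more and 8.08% have 13 or more. Among all 26436 tested genes these shares were 12.6%, 3.71% and 0.968%. The sequence of g#N1_E is not given in the sources used here, and the part of these runs in the changes was not tested.

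**Figure D1:**
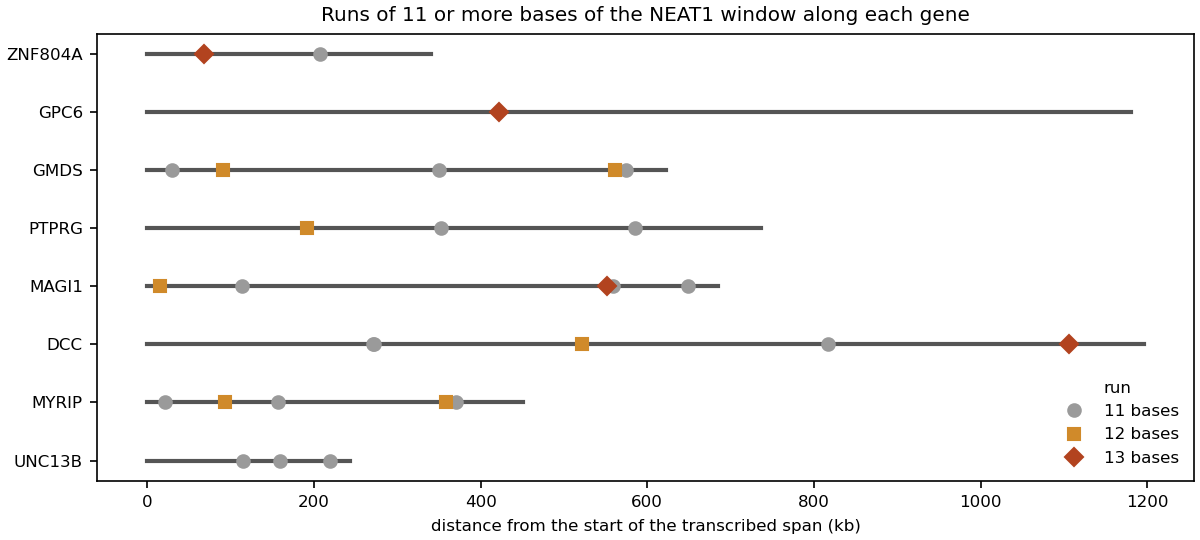
The horizontal axis is the distance in kb from the start of the transcribed span of each of the 8 genes, drawn as a line as long as its span, and each mark is a site that shares 11, 12 or 13 bases in a row with the NEAT1 window. ZNF804A, GPC6, MAGI1 and DCC each have a site of 13 bases, at 20%, 35.7%, 80.5% and 92.5% of the span.

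The axon guidance and adhesion receptors differed in where they were expressed. DCC was expressed in all 3 lines. Its level was 88.4, 97.4 and 89.6 CPM in the AMO1 libraries labelled gN1E and 52.8, 50.8 and 42.3 CPM in those labelled SCR. In H929 it was 72.2, 74.2 and 76.0 CPM against 37.6, 34.2 and 32.8 CPM, and in LP1 57.0, 58.7 and 59.9 CPM against 31.6, 32.2 and 37.3 CPM. All gN1E libraries lay above all SCR libraries of the same line. The log2 fold changes of DCC were 0.92 (SE 0.075) in AMO1, 1.07 (SE 0.057) in H929 and 0.82 (SE 0.064) in LP1. Among GMDS, PTPRG, DCC and UNC13B, which were expressed in all 3 lines, DCC had the most even change.

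PTPRG was by far most abundant in LP1. Its level there was 326, 339 and 343 CPM in the libraries labelled gN1E and 155, 181 and 181 CPM in those labelled SCR. In AMO1 it was 9.05, 9.21 and 9.75 CPM against 3.53, 3.6 and 3.05 CPM, and in H929 18.6, 17.4 and 17.0 CPM against 4.61, 5.29 and 3.95 CPM. The groups did not overlap in any line. The log2 fold change was largest in H929, 1.92 (SE 0.094), then 1.46 (SE 0.12) in AMO1 and 0.98 (SE 0.059) in LP1, where the level was highest.

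GPC6 was expressed in AMO1 and H929 and nearly absent from LP1. In AMO1 its level was 54.0, 53.4 and 52.5 CPM under gN1E and 13.6, 11.8 and 9.05 CPM under SCR, and in H929 50.3, 49.8 and 48.9 CPM against 11, 9.85 and 10.1 CPM. The log2 fold changes were 2.21 (SE 0.11) and 2.26 (SE 0.064), and no library of one label reached those of the other. In LP1 only 5 reads were counted over 6 libraries (0.0162 CPM, 95% Poisson interval 0.00525 to 0.0378 CPM, counting error only), and GPC6 was not tested there.

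MAGI1 was expressed in H929 and LP1 and nearly absent from AMO1. Only 2 reads were counted in the 6 AMO1 libraries, both in gN1E replicate D. In H929 its level was 8.23, 7.93 and 8.28 CPM under gN1E and 3.14, 2.7 and 3.9 CPM under SCR, and in LP1 30.6, 30.6 and 33.1 CPM against 13, 16.9 and 16.5 CPM. The groups did not overlap in either line, and the log2 fold changes were 1.33 (SE 0.12) and 1.05 (SE 0.088).

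Of the vesicle genes, UNC13B had the highest CPM of the 8 genes in AMO1 and H929, and in LP1 it was second to PTPRG. Its change was the smallest of the tested members in each line. In AMO1 its level was 187, 182 and 180 CPM under gN1E and 114, 102 and 107 CPM under SCR, and in H929 162, 169 and 159 CPM against 95.4, 94.5 and 85.6 CPM. In LP1 it was 142, 142 and 134 CPM against 125, 123 and 130 CPM, so that the groups did not overlap but lay close. The log2 fold changes were 0.77 (SE 0.056), 0.82 (SE 0.050) and 0.17 (SE 0.048), and that in LP1 was not past the threshold.

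MYRIP was counted in H929 and LP1 only. No read was counted in the 6 AMO1 libraries, which allows a level of up to 0.0101 CPM (3 counts over the group). In LP1 its level was 6.47, 6.42 and 5.15 CPM under gN1E and 2.87, 3.56 and 3.6 CPM under SCR, with a log2 fold change of 0.87 (SE 0.13). In H929 the level was near the limit of detection, with 25, 26 and 38 counts under gN1E and 11, 11 and 1 counts under SCR. Its log2 fold change of 1.72 (SE 0.44) there was 1.33 without SCR replicate C, the library with 1 count, and MYRIP was then no longer past the threshold.

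The fucose enzyme GMDS was expressed in all 3 lines. Its level under gN1E was nearly the same in each, with 22.8, 20.9 and 20.2 CPM in AMO1, 18.3, 19.6 and 21.4 CPM in H929 and 18.6, 18.3 and 19.3 CPM in LP1. Under SCR it was 7.09, 7.47 and 6.70 CPM in AMO1, 5.07, 5.05 and 5.95 CPM in H929 and 12.1, 14.2 and 12.4 CPM in LP1. No groups overlapped within a line. The log2 fold changes were 1.59 (SE 0.092), 1.88 (SE 0.088) and 0.56 (SE 0.079).

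ZNF804A had the largest change of the 8 genes in AMO1. Its level there was 35.5, 34.7 and 36.4 CPM under gN1E and 6.08, 6.0 and 5.91 CPM under SCR, with a log2 fold change of 2.57 (SE 0.081), close to that of NEAT1 in the same libraries. In H929 it was 51.9, 52.4 and 51.8 CPM against 12.7, 11.5 and 12.3 CPM, a log2 fold change of 2.08 (SE 0.062). LP1 gave only 31 counts over 6 libraries, 7, 2 and 10 under gN1E and 5, 5 and 2 under SCR, which overlapped, and no difference was detectable at this depth.

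**Figure D2:**
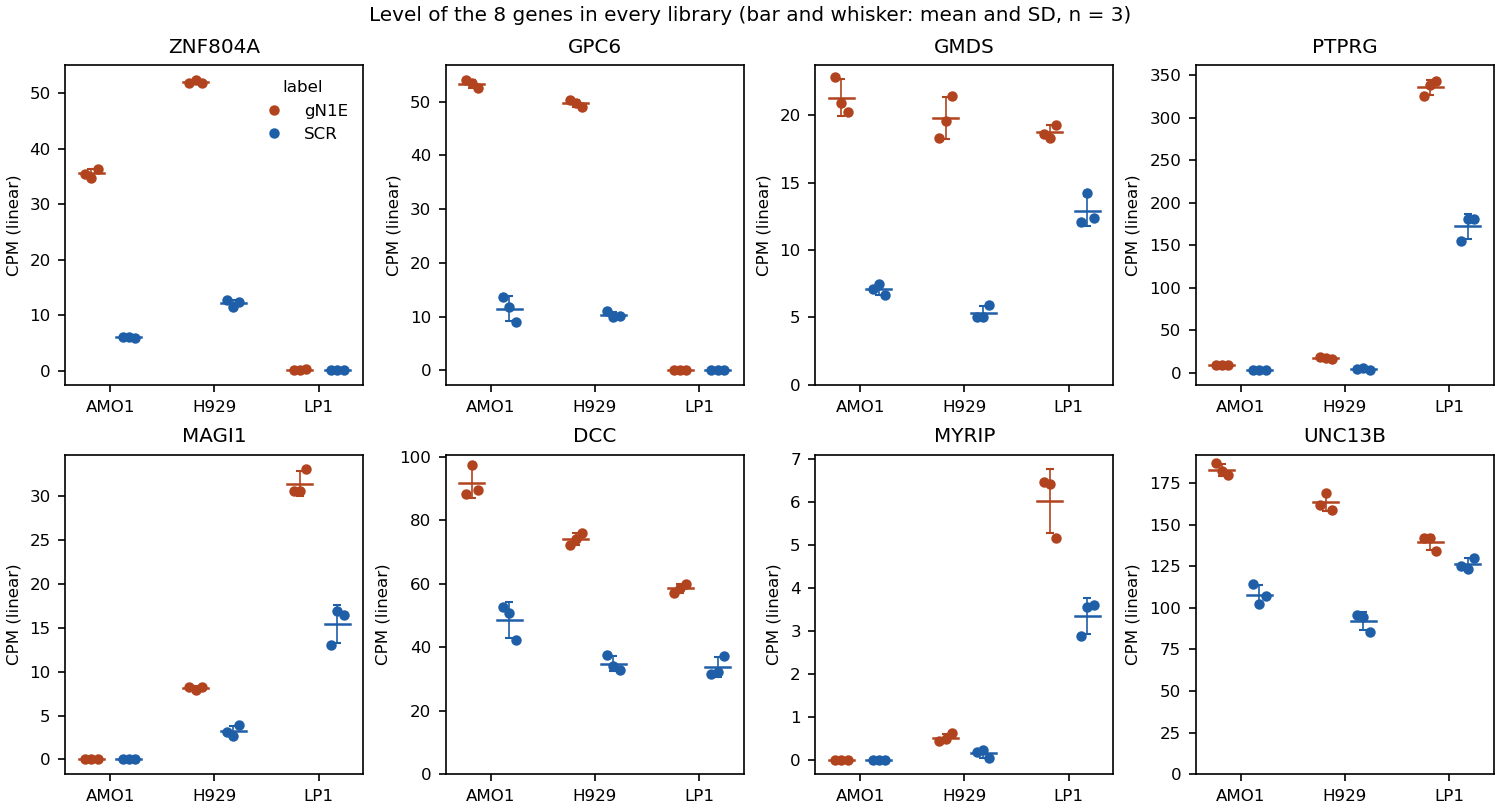
Each panel is 1 of the 8 genes, the vertical axis is CPM on a linear scale, and points are libraries by line and label with the mean and SD (n = 3). The gN1E points lie above the SCR points in each line where the gene is expressed, while ZNF804A and GPC6 lie near 0 in LP1, and MAGI1 and MYRIP near 0 in AMO1.

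Counted over the 8 genes, 6 of the 6 that could be tested were called in AMO1, 8 of 8 in H929 and 5 of 7 in LP1, all higher under gN1E. The rule used these contrasts, so the counts are set beside the background without reading anything from them. Of all genes tested, 1.64% were called higher and 0.419% lower in AMO1 (377 and 96 of 22933), 3.70% and 1.77% in H929 (870 and 416 of 23499), and 0.656% and 0.777% in LP1 (152 and 180 of 23165), at an adjusted p under 0.05. With library size as the only scaling, the share of calls that were higher moved from 79.7% to 51.2% in AMO1, from 67.7% to 42.8% in H929 and from 45.8% to 63.8% in LP1. In AMO1 the replicate block gave 1394 calls, 776 higher and 618 lower, and the same count of 6 among the 8 genes. All gN1E libraries lay above all SCR libraries for 6, 8 and 6 of the tested members, against 9.17%, 12.2% and 7.42% of all tested genes in AMO1, H929 and LP1. The median log2 fold change of the tested members was 1.52, 1.80 and 0.87, beside -0.02, -0.01 and 0.00 over all genes.

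**Figure D3:**
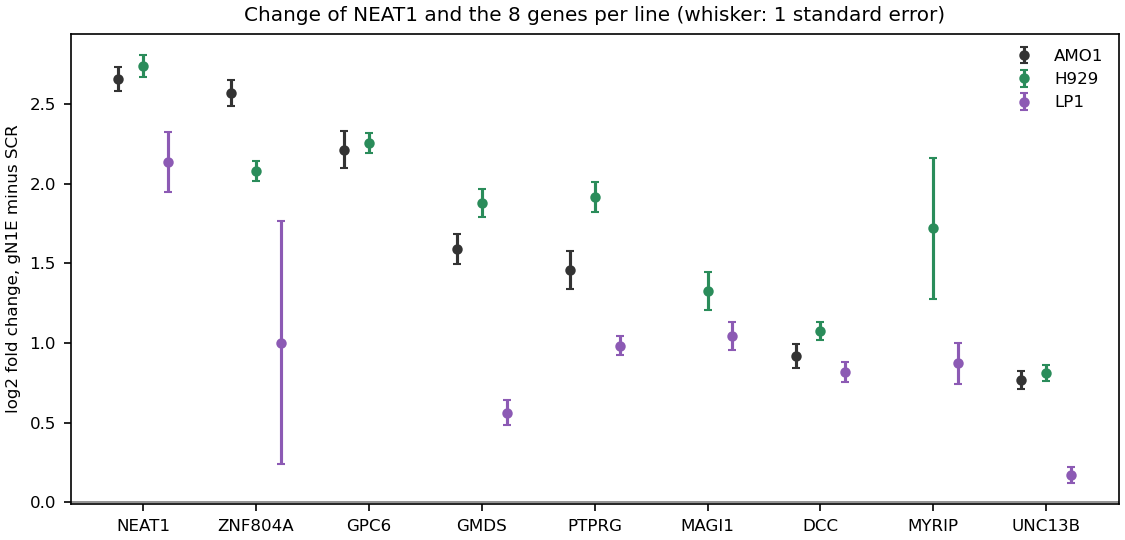
The vertical axis is the log2 fold change, gN1E minus SCR, of NEAT1 and the 8 genes, with 1 point per line where the gene was tested and a whisker of 1 standard error. All points lie above 0, those of LP1 are the lowest for every gene that has an LP1 point, and the long whiskers of ZNF804A in LP1 and MYRIP in H929 belong to genes with few counts.

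The sizes of change were set side by side between lines from a joint fit of the 18 libraries. The change of GMDS was larger than in LP1 by 1.05 (SE 0.12) on the log2 scale in AMO1 and by 1.35 (SE 0.12) in H929. For UNC13B these differences were 0.62 (SE 0.073) and 0.68 (SE 0.073), and for PTPRG 0.49 (SE 0.11) and 0.96 (SE 0.10). DCC differed from LP1 by only 0.12 (SE 0.10) in AMO1 and 0.29 (SE 0.10) in H929. For AMO1 minus H929, GPC6 differed by -0.06 (SE 0.14), UNC13B by -0.06 (SE 0.073), DCC by -0.17 (SE 0.10) and ZNF804A by 0.47 (SE 0.11). PTPRG (-0.47, SE 0.12) and GMDS (-0.30, SE 0.13) had the larger change in H929. The change of NEAT1 itself did not pass a test of the difference, being larger than in LP1 by 0.54 (SE 0.18, adjusted p = 0.278) in AMO1 and by 0.64 (SE 0.18, adjusted p = 0.197) in H929 (edgeR).

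Levels between lines, averaged over both labels, were not the contrast that chose the genes and were compared in the joint fit, although the choice used the same libraries. GPC6, MAGI1 and MYRIP passed the filter on low counts only through the lines where they are high, and ZNF804A passed it in LP1 by 1 library with 10 counts, so these 4 had to differ from the line where they are near 0. With them, 7 of the 8 genes passed between AMO1 and H929, 8 between AMO1 and LP1 and 8 between H929 and LP1, where 44.4%, 75.9% and 74.6% of the 26436 genes did, and nothing is read from these counts. PTPRG was 42.7-fold higher in LP1 than in AMO1 (adjusted p = 1.48e-37) and 26.5-fold higher than in H929 (adjusted p = 2.6e-36, edgeR). MAGI1 was 4.31-fold higher in LP1 than in H929 (adjusted p = 5.47e-20) and MYRIP 15.7-fold (adjusted p = 2.8e-18). Against the lines with few or no counts, folds were taken from counts pooled over the 6 libraries of a line rather than from averaged levels. On this scale MYRIP was at least 446-fold higher in LP1 and at least 34.5-fold higher in H929 than the AMO1 floor of 3 counts. MAGI1 was 3320-fold higher in LP1 than in AMO1 (95% interval 919 to 27423, counting error only), and both AMO1 reads came from 1 library.

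In the other direction and on the same pooled scale, GPC6 was 1678-fold higher in AMO1 (95% interval 719 to 5170) and 1950-fold higher in H929 (835 to 6008) than in LP1. ZNF804A was 170-fold higher in AMO1 (119 to 250) and 336-fold higher in H929 (237 to 495). Of the 5 GPC6 reads in LP1, 3 came from SCR replicate B. Between AMO1 and H929, ZNF804A was 1.72-fold higher in H929 (adjusted p = 8.84e-14) and GPC6 did not pass the test (log2 difference 0.13, SE 0.069, adjusted p = 0.13), although it did without AMO1 SCR replicate D, at 0.20.

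DCC, GMDS and UNC13B had smaller differences between the lines. DCC was highest in AMO1, 1.31-fold above H929 (adjusted p = 7.62e-08) and 1.51-fold above LP1 (adjusted p = 3.07e-12). For GMDS the difference moved with the label. LP1 was above AMO1 by 0.34 and above H929 by 0.60 on the log2 scale over both labels. In the SCR libraries alone AMO1 minus LP1 was -0.86 and H929 minus LP1 -1.28. In the gN1E libraries alone AMO1 minus LP1 was 0.19, and H929 minus LP1 was 0.08 and no longer past the threshold. UNC13B was 0.08 higher in AMO1 than in LP1 over both labels (adjusted p = 0.0415), a call that was lost under DESeq2, RLE size factors, no filter and without any 1 of 7 libraries, and AMO1 minus LP1 was -0.23 in the SCR libraries alone. H929 minus LP1 for UNC13B was -0.12 over both labels (adjusted p = 0.00479, edgeR), 0.22 in the gN1E libraries alone and 0.074 with library size as the only scaling, where it was no longer past the threshold.

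Per kb of exon, the order of levels within a line could be compared between genes. In the SCR libraries of AMO1, UNC13B had 6.01 ± 0.349 CPM per kb (SD, n = 3) and DCC 3.70 ± 0.427, followed by GMDS (1.68 ± 0.092), GPC6 (1.61 ± 0.324) and ZNF804A (1.32 ± 0.019), of which GPC6 overlapped both GMDS and ZNF804A, and PTPRG (0.232 ± 0.020). Under gN1E in AMO1, UNC13B had 10.2 ± 0.213 CPM per kb, ZNF804A 7.86 ± 0.183, GPC6 7.48 ± 0.107, DCC 6.99 ± 0.371 and GMDS 5.05 ± 0.314. By their means ZNF804A and GPC6 stood below DCC under SCR and above it under gN1E. In LP1 under SCR, PTPRG led with 11.8 ± 1.05 CPM per kb, followed by UNC13B with 7.04 ± 0.191.

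Genes at the same loci were examined next, since the counts are by strand. Of 10 annotated genes on the same strand and 21 on the opposite strand within the 8 spans, few were expressed. RPL10AP6, a ribosomal protein pseudogene opposite to PTPRG, had log2 fold changes of 0.01, 0.16 and 0.07 with none past the threshold. Its reads may be shared with RPL10A and other near-identical copies. ENSG00000289204, inside GPC6 on the same strand, rose in AMO1 (2.09, SE 0.38, adjusted p = 0.00282) and H929 (3.27, SE 0.53, adjusted p = 0.00147), at a mean of only 20.5 and 31.2 counts per library, and was named after its values were seen. Without H929 SCR replicate A its call in H929 was lost. It carries 8 bases of the NEAT1 window and had no count in LP1, where GPC6 was nearly absent. Reads from unspliced GPC6 RNA would be counted for it too, and their share was not tested. ENSG00000278177, opposite to GPC6, had -0.27 in AMO1 (adjusted p = 0.717), and ENSG00000280098, within DCC on the same strand, had 0.09, -0.50 and 0.41 in AMO1, H929 and LP1 (adjusted p = 0.905, 0.174 and 0.537, edgeR). MAGI1-IT1, within MAGI1 on the same strand at under 50 counts per library and named after its values were seen, had 1.03 in LP1 (SE 0.26, adjusted p = 0.0507) and 0.64 in H929 (adjusted p = 0.509). Reads from unspliced RNA of the host gene would likewise be counted for ENSG00000280098 and MAGI1-IT1. No gene on the opposite strand passed the test in any line.

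Among the 16 nearest neighbours that were tested in all 3 lines, 2 passed in AMO1, 3 in H929 (2 higher and 1 lower) and 2 in LP1. Beside this stand 1.64% higher and 0.419% lower of all genes in AMO1, 3.70% and 1.77% in H929 and 0.656% and 0.777% in LP1. GPC5, tested in AMO1 only, was not among these neighbours. FHIT, which lies before PTPRG and spans 1504 kb, rose in AMO1 (0.95, SE 0.12, adjusted p = 5.56e-05), H929 (1.14, SE 0.11, adjusted p = 1.1e-08) and LP1 (0.62, SE 0.14, adjusted p = 0.0287). SLC25A26, a mitochondrial carrier after MAGI1 on the other strand, rose by 0.74, 0.75 and 0.39 (adjusted p = 5.79e-07, 2.53e-09 and 0.00895). In LP1 the call of FHIT was lost without SCR A (0.53), SCR B (0.60) or gN1E D (0.45), under limma-voom (0.61) and with the replicate block and the trend with span removed (0.52), and that of SLC25A26 without SCR A (0.38), SCR B (0.36) or gN1E A (0.36). FHIT and SLC25A26 carry 13 and 12 bases of the NEAT1 window. ATOSB, beside UNC13B, carries 8 bases and fell in H929 by 0.33 on the log2 scale (adjusted p = 0.0263). The call of ATOSB was lost with the replicate block and without 5 of the 6 libraries, each left out alone. PRICKLE2, on the other side of MAGI1, also carries 13 bases and did not pass, with 0.08, -0.20 and -0.15 (adjusted p = 0.801, 0.121 and 0.527), nor did MIR17HG and TGDS around GPC6 (0.06 and 0.04 in AMO1, adjusted p = 0.786 and 0.894). With the replicate block in AMO1, MEX3C (0.18, adjusted p = 0.0236) and MBD2 (0.20, adjusted p = 0.00413, edgeR) on either side of DCC also passed.

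The pathways and families of the 8 genes were then counted by list. Of 18 tested genes of fucose metabolism and transfer, none passed in any line, with medians of -0.06, -0.01 and -0.02 beside medians of -0.02, -0.01 and 0.00 over all genes in AMO1, H929 and LP1. GFUS, which acts directly after GMDS, had -0.22 in AMO1 (adjusted p = 0.141), -0.02 in H929 and -0.18 in LP1. With the replicate block in AMO1 it passed, at an adjusted p of 0.0181 (edgeR), in the direction opposite to GMDS. The list's summed level was 766 to 795 CPM under gN1E and 786 to 836 CPM under SCR in AMO1.

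Among glypicans and heparan sulfate genes, EXT2, a polymerase of the heparan sulfate chain, rose in AMO1 (0.65, SE 0.071, adjusted p = 5.06e-06), H929 (0.66, SE 0.057, adjusted p = 2.95e-09) and LP1 (0.33, SE 0.053, adjusted p = 0.00195). EXT2 carries 14 bases of the NEAT1 window. SDC1 was the other gene that passed, in H929, and its call there was lost with library size as the only scaling and without any of 5 libraries left out alone. The list thus had 1 of 18 higher in AMO1, 2 of 20 in H929 and 1 of 21 in LP1, none lower, where 1.64%, 3.70% and 0.656% of all genes were called higher, and medians of 0.06, 0.06 and 0.01. The glypicans did not pass. GPC1 had -0.11, -0.06 and -0.28 in AMO1, H929 and LP1 (adjusted p = 0.808, 0.853 and 0.0661), GPC2 -0.31, 0.09 and 0.01, and GPC4, not counted in AMO1, -0.10 and 0.06 in the other lines. GPC5 was tested in AMO1 only, at 0.96 (adjusted p = 0.656), and GPC3 in no line.

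Of the netrin list, NEO1, the closest relative of DCC, rose in AMO1 (0.32, SE 0.072, adjusted p = 0.0163) and H929 (0.21, SE 0.055, adjusted p = 0.0211) and had 0.06 in LP1 (adjusted p = 0.648). Its calls were lost with the trend with span removed, and without SCR D, gN1E A or gN1E D in AMO1 and SCR A, SCR C or gN1E B in H929. TRIO, which acts downstream of DCC, rose in AMO1 (0.37, adjusted p = 0.000426) and H929 (0.39, adjusted p = 4.36e-06), which became 0.22 and 0.25 with the replicate block and the trend with span removed. These were the calls among 13 and 16 tested genes, beside 1.64% and 3.70% called higher of all genes, and LP1 had none of 16. Of the receptor tyrosine phosphatases, PTPRC (CD45) fell in AMO1 by 0.40 (adjusted p = 0.00198) and in H929 by 0.45 (adjusted p = 1.18e-06), and PTPRM rose in H929 by 0.26 (adjusted p = 0.00642), which became -0.001 with the trend with span removed. No member of that list passed in LP1. PTPRZ1, the closest relative of PTPRG, was tested in LP1 only (0.49, adjusted p = 0.795). With the replicate block in AMO1, PTPRM passed there too, at 0.22 (adjusted p = 0.0156, edgeR), which became -0.021 with the block and the trend with span removed.

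The junction scaffolds had no call in AMO1 or LP1. In H929 DLG2 rose by 0.81 (SE 0.19, adjusted p = 0.00758). It was no longer past the threshold with the trend with span removed (0.40). MAGI2 had 0.20, 0.00 and 0.07 and MAGI3 -0.02, -0.05 and -0.09 in AMO1, H929 and LP1, none past the threshold. With the replicate block, AMO1 had 3 higher (DLG1, DLG2 and DLG3, at 0.16, 0.78 and 0.18) and 1 lower (SCRIB, -0.26) of 15, where 776 of all 22933 genes were higher and 618 lower in that fit. In the list of RAB27 effectors and vesicle release, SYTL1 fell in AMO1 by 0.43 (adjusted p = 0.0277) and UNC13D in H929 by 0.80 (adjusted p = 0.0238, at 0.983 CPM under gN1E and 1.68 CPM under SCR), and LP1 had no call. The call of SYTL1 was lost without SCR A, SCR D, gN1E C or gN1E D, and that of UNC13D without SCR A, SCR B or gN1E C. UNC13A had -0.09, -0.13 and 0.19 and UNC13C -0.12, -0.17 and 0.04, none past the threshold. UNC13B had 0.77 in AMO1, 0.82 in H929 and 0.17 in LP1. The LP1 value was not past the threshold and was no larger than that of UNC13A. STXBP2 passed in AMO1 with the replicate block (-0.30, adjusted p = 0.0245, edgeR). ZNF804B was counted at most at 0.0125 CPM and was not tested.

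Across all other genes, larger span and, from 9 bases up, longer run went with a higher share of genes called higher under gN1E. Among genes at 1 CPM or more, in AMO1 the share called higher was 0.593% of 4551 genes under 10 kb, 3.79% of those from 50 to 200 kb, 11.6% of those from 200 to 500 kb and 25.2% of 135 genes over 500 kb. In H929 the last of these was 31.7% of 167 genes and in LP1 8.48% of 165, where 3.64% were called lower, the highest such share of the LP1 span classes. By run, 0.409% of AMO1 genes with 8 or fewer bases were called higher, 7.02% with 11, 14.3% with 12 and 38.1% of 168 genes with 13 or more. In H929 these shares were 1.64%, 14.0%, 22.8% and 45.9%, and in LP1 0.36%, 1.90%, 5.09% and 11%. The AMO1 share with 9 bases was 0.354%, below that with 8 or fewer. Among genes over 200 kb only, the share in AMO1 was 6.51% of 292 genes with 10 bases, 11.2% of 420 with 11, 22.9% of 140 with 12 and 40.0% of 70 with 13 or more. In H929 these shares were 11%, 19.8%, 33.5% and 46.1%, and in LP1 0.649%, 2.51%, 7.01% and 14.7%. The highest class median, that of H929 genes over 200 kb with 13 or more bases, was 0.27 on the log2 scale. Since the window was chosen on AMO1, its AMO1 shares are a description of that choice. All shares are from the fit without the block, and the calls over all genes moved. In AMO1 the 377 calls higher and 96 lower became 776 and 618 with the replicate block. With 1 library left out, the 1286 calls of H929 became 701 to 1272 and the 332 of LP1 became 87 to 780.

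**Figure D4:**
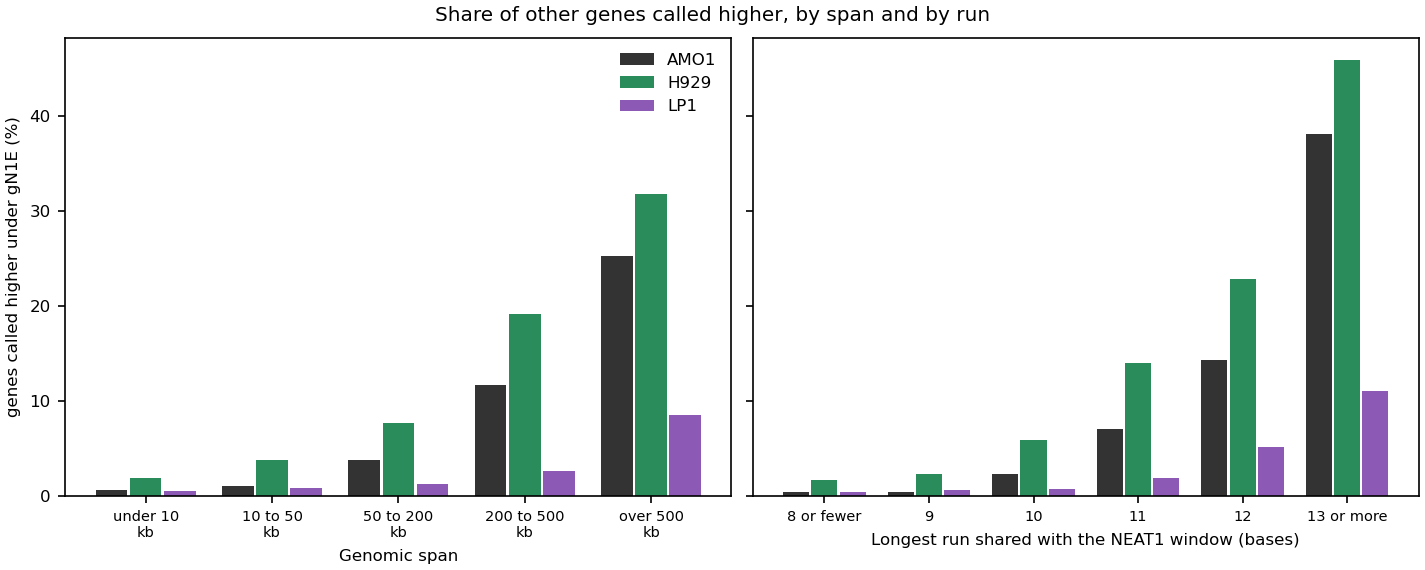
The vertical axis is the percentage of tested genes, without NEAT1 and the 8 genes, called higher under gN1E, by genomic span on the left and by the longest run shared with the NEAT1 window on the right, with bars for AMO1, H929 and LP1. The bars rise to 25.2%, 31.7% and 8.48% for genes over 500 kb and to 38.1%, 45.9% and 11% for runs of 13 or more bases.

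Of the 251 other genes with 13 or more bases, 192 were tested in all 3 lines, and among these the largest mean changes were those of COLQ, NLK, TTC27, FSIP1 and MSR1. COLQ, the collagen tail of acetylcholinesterase, had 1.13, 1.15 and 0.79 in AMO1, H929 and LP1 (adjusted p = 1.65e-06, 1.67e-07 and 0.00292). NLK, a kinase of the Wnt pathway, had 1.15, 1.28 and 0.58 (adjusted p = 1.86e-09, 2.29e-14 and 0.000273), and TTC27 1.16, 1.32 and 0.52 (adjusted p = 1.86e-09, 8e-15 and 0.0121, edgeR). MSR1 passed in AMO1 and H929 (1.25 and 1.29) but not in LP1 (0.39, adjusted p = 0.733), and FSIP1 in H929 only (1.98, adjusted p = 0.000608).

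The genes whose pattern over the 18 libraries was most like the mean of the 8, centred within each line, were STAMBP, MIR600HG, BIN3, PPM1L and CNOT6, with Pearson's r from 0.983 to 0.986 among 11280 genes at a mean of 5 CPM or more. NEAT1 itself had 0.972. These points share their libraries and labels, so r is a description. PPM1L spans 323 kb and changed by 1.33, 1.44 and 0.59, whereas MIR600HG spans 5.98 kb, carries 7 bases of the window and changed by 0.86, 1.0 and 0.41 in AMO1, H929 and LP1.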

How the data were processed

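The authors deposited raw counts per gene for 18 libraries. Per the file headers and the submitters' processing notes, reads were aligned to hg38 with STAR 2.7.10a and counted as pairs, by strand, over the exons of GENCODE release 43 with featureCounts 1.6.4. Reads within introns were not counted. Each table lists 62703 genes, and 62639 matched a symbol. Total counts per library, the depth, ran from 28061606 to 69937229. The 8 genes and all gene lists were chosen with earlier results of these data known.

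A gene was tested in a line where 1 or more of its libraries had 10 reads or more, with edgeR 4.0.16 in R 4.3.3 (TMM, robust quasi-likelihood fit, Benjamini-Hochberg adjustment over all genes, threshold 0.05). Lines were compared in a joint fit of 18 libraries. CPM used TMM-scaled library sizes of all 18 libraries. On simulated data the fit recovered 100% of the changes put in, which were large changes in well-counted genes. The simulation gave every gene the same low spread and had no effect of the replicate letter. Recovery of small changes, or of changes in genes with few counts, was not measured. False calls were 1.96% of calls in AMO1, 5.66% in H929, 6.98% in LP1 and 5.21% for H929 against AMO1. Except in AMO1, these shares were slightly above the threshold of 0.05. Libraries with the same replicate letter correlated weakly in their deviations from the group means in AMO1 (0.198, 0.16 and 0.121). In LP1 letter A had 0.178, while LP1 letters B and D and the letters of H929 ran from -0.094 to 0.008. Libraries of different letters were not compared, so whether the letters pair the libraries is not known. The fit without the block is given unless stated, and the AMO1 value with the replicate block is printed where it changes a call.

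NEAT1 stretches and runs were read from hg38 within the spans of the count tables, with pysam 0.24.0, numpy 2.4.6 and pandas 2.3.3. Stretches were scored on genes at 1 CPM or more, and runs were read for all tested genes. Intervals are 95% and cover counting error only. For likeness, log2(CPM + 0.5) was used. Named genes are the 8 genes, NEAT1, expressed genes at their loci (at least 50 counts per library on average) and nearest neighbours, the called genes of each list (up to 3 per list and line) and close relatives, the 5 genes most alike and the 5 carriers of runs of 13 or more bases with the largest mean change. Alternatives were limma-voom (limma 3.58.1), DESeq2 1.42.0, other scalings and filters, the block, removal of the trend with span, the joint fit, calls at 0.1 and 1.5-fold (thresholds of the study's supplementary methods) and each library left out. A result of the junction scaffold list is not reported here.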

Additional observations from a re-analysis of the deposited data

Results flagged for a closer look

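The following differences in change between lines passed the test of the difference itself, an interaction in the joint edgeR fit of 18 libraries, among NEAT1, MALAT1 and the genes of the lists and loci that were called in a line. Carriers of long runs and the genes most alike, which were named by their change, were not tested for such differences. EXT2 changed more in AMO1 than in LP1 by 0.34 on the log2 scale (SE 0.086, adjusted p = 0.0497) and more in H929 than in LP1 by 0.36 (SE 0.085, adjusted p = 0.0272). SLC25A26, beside MAGI1, changed more in H929 than in LP1 by 0.39 (SE 0.095, adjusted p = 0.0379). For CD38 the change in H929 minus that in LP1 was -0.27 (SE 0.067, adjusted p = 0.0437). Differences between lines for the 8 genes themselves were not tested, because the genes were chosen on these changes.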

How the results depend on the processing

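The log2 fold changes of the 8 genes, gN1E minus SCR, stayed above 0 in all 334 combinations of gene, line and alternative. The genes were chosen for changes in this direction in the same libraries, so nothing is read from that count. Among the 8 genes, 6 were called in AMO1 under every alternative. In H929 7 or 8 were called, the loss being MYRIP under DESeq2, limma-voom, both block fits and without SCR C, gN1E B or gN1E C, and in LP1 4 to 6, with UNC13B gained under DESeq2, library size only and without SCR D, and 4 at an adjusted p under 0.1 and a 1.5-fold change. The count over all genes moved more. In AMO1, 473 calls became 808 with no filter, 1394 with the replicate block, 1297 with the replicate block and the span trend removed, 176 at an adjusted p under 0.1 and a 1.5-fold change, and 254 to 606 with 1 library left out (261 without SCR D, 288 without gN1E C, 254 without gN1E D). In H929, 1286 became 369 at those thresholds and 701 to 1272 with 1 library left out (709 without SCR A, 701 without gN1E B). In LP1, 332 became 700 with no filter, 166 with the replicate block and the span trend removed, 102 at those thresholds and 87 to 780 with 1 library left out (123 without SCR A, 87 without SCR B, 780 without SCR D, 143 without gN1E A, 176 without gN1E B, 202 without gN1E D). The replicate block alone gave 931 calls in H929 and 243 in LP1, where not every letter had a positive correlation between its libraries. The causes were not tested.

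Among values past the threshold, directions that turned were those of GMDS in AMO1 minus LP1 (0.19) and H929 minus LP1 (0.076) in the gN1E libraries alone, UNC13B in AMO1 minus LP1 in the SCR libraries alone (-0.23), UNC13B in H929 minus LP1 in the gN1E libraries alone (0.22) and with library size only (0.074), and PTPRM in H929 with the span trend removed, with and without the replicate block (-0.001). Among values not past the threshold, signs also turned for PTPRM in AMO1 (-0.018 with the span trend removed), MALAT1 in AMO1, SYTL1 in LP1 and UNC13D in LP1. UNC13B in AMO1 minus LP1 was no longer past the threshold under DESeq2, RLE size factors, no filter and without any 1 of 7 libraries. Removing the span trend lowered the change of DCC from 0.92 to 0.64 in AMO1 and from 1.07 to 0.76 in H929. The longest runs were the same with stretches of 10 or 12 bases and with the score from H929. Depth limits ZNF804A and GPC6 in LP1, MAGI1 and MYRIP in AMO1, and MYRIP in H929.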
